A study of Mus musculus with 16 samples.

Results

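Transcripts of 10 genes that mark the fibroblasts of the arterial adventitia were followed in the aortas of 16 mice with or without 5/6 nephrectomy (5/6 Nx). They were Lum, Dcn, Dpt, Clec3b, Fap, Dpp4, Pdgfra, Thy1, Cd34 and Pi16. They were taken by gene symbol from the 54532 genes of the count table, in which each symbol had 1 row, and all 10 passed the filter on low counts in every comparison. In 5/6 Nx-HPi-Lp mice, Lum was 5.25-fold, Thy1 3.81-fold, Fap 2.75-fold and Dpt 2.20-fold the level of Sham mice, and Clec3b fell to 0.494 times that level. Pi16 was not called in any comparison. Every one of the 10 was detected in every library, with at least 39 counts.

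The adventitia is the outer coat of an artery, a loose connective tissue whose main cells are fibroblasts that make collagen and small proteoglycans. Pdgfra encodes a receptor for platelet-derived growth factors that fibroblasts carry and smooth muscle cells mostly lack. Fibroblasts with Pi16, Dpp4 and Cd34 are known from many tissues as a resting pool near vessels, and Fap is known from fibroblasts of healing wounds and tumours. The decorin and lumican genes encode sugar-bearing matrix proteins that bind collagen fibrils.

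RNA came from the aorta of male C57BL/6J mice, 4 per group and 1 library per mouse, which were 12 weeks old at the first of their surgeries. 5/6 Nx-HPi-Lp mice had first lost most of their kidney tissue by pole ligation of the left kidney and removal of the right, a model of CKD. They then ate a diet with 2% phosphorus and only 2.5% protein. The 5/6 Nx-HPi-Hp mice had the same surgery and a diet of 2% phosphorus and 18% protein, and the 5/6 Nx-LPi-Lp mice the same surgery and 0.3% phosphorus with 2.5% protein. The Sham mice had surgery that spared the kidneys and ate the 2% phosphorus, 2.5% protein diet of 5/6 Nx-HPi-Lp mice, and no library of a Sham mouse on another diet was analysed here. The study's methods give 4 weeks on the diets, and the library labels give 30 days. The comparison with Sham mice therefore asks what 5/6 Nx changed under 1 diet, and the comparisons with the other 5/6 Nx groups ask what dietary protein and phosphorus changed after 5/6 Nx. The whole vessel wall was sequenced, so fewer cells of a type and less RNA per cell cannot be told apart. All 3 comparisons of 5/6 Nx-HPi-Lp mice use the same 5/6 Nx-HPi-Lp libraries.

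Library totals ran from 13659525 to 57276915 counts, the largest being that of 5/6 Nx-HPi-Lp replicate 2. Levels are given as CPM, counts scaled to a common library size after TMM scaling of the 16 libraries, and a gene was called where its adjusted p was at most 0.05 by the quasi-likelihood test of edgeR, with the p-values of all genes tested adjusted by the Benjamini-Hochberg method, and its log2 fold change at least 1 in size. Log2 fold changes are given ± SE. The mitochondrial share of counts was 4.18% to 6.34% in Sham libraries and 9.50% to 29.0% in the others. The 10 genes together made up 2151, 1827, 1566 and 1278 CPM in the 4 Sham mice, 1514, 3710.4, 2334 and 2356 CPM in 5/6 Nx-HPi-Lp aortas, 1559, 1301, 952 and 1658 CPM in 5/6 Nx-HPi-Hp aortas and 1000.5, 1453, 1019.6 and 827 CPM in 5/6 Nx-LPi-Lp aortas. Among the 5/6 Nx-HPi-Lp mice, replicate 2 was the highest for 9 of the 10 genes and replicate 1 the lowest for all 10. The median coefficient of variation of the 10 genes was 23.2% in Sham, 49.6% in 5/6 Nx-HPi-Lp, 29.6% in 5/6 Nx-HPi-Hp and 20.8% in 5/6 Nx-LPi-Lp mice.

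**Figure D1:**
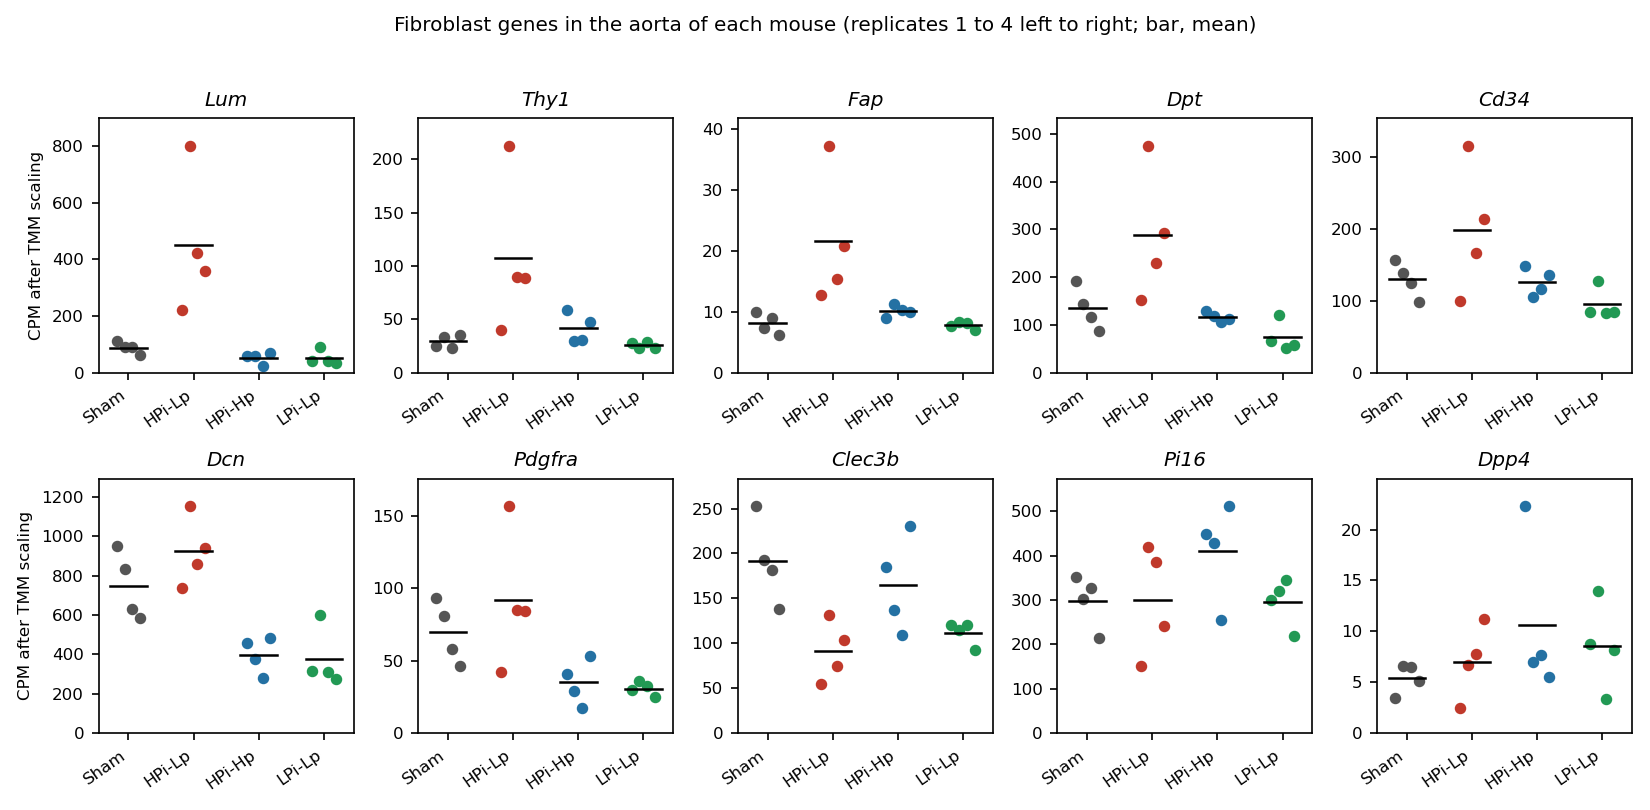
Level of each of the 10 fibroblast genes in the aorta of every mouse, in CPM after TMM scaling; each point is 1 mouse and the bar is the mean of 4, and HPi-Lp, HPi-Hp and LPi-Lp stand for the 3 groups of 5/6 Nx mice. Lum reached 801 CPM in 5/6 Nx-HPi-Lp replicate 2, and the Pi16 ranges of the 4 groups overlap.

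Against Sham mice, 4 of the 10 genes were called higher in 5/6 Nx-HPi-Lp mice and 1 was called lower. Of all genes tested, 22.2% were called, 15.0% higher and 7.18% lower. The groups did not overlap for 3 of the 10 that were higher and 1 that was lower, where the same held for 18.8% and 24.2% of all genes. Against 5/6 Nx-HPi-Hp mice 5 of the 10 were called, all higher, where 8.12% of all genes were called and 5.01% were called higher and 3.11% lower. There 4 of the 10 were higher with no overlap and 0 lower, beside 10.1% and 10.3% of all genes. Against 5/6 Nx-LPi-Lp mice 7 of the 10 were called, all higher, where 11.9% of all genes were called and 7.90% were called higher and 3.98% lower. There 6 of the 10 were higher with no overlap and 0 lower, beside 12.6% and 12.1% of all genes. The median log2 fold change of the 10 genes was 0.56, 1.16 and 1.40 in the 3 comparisons, beside -0.0027, 0.0098 and -0.016 over all genes tested. Lum, Fap and Dpt were called higher in all 3 comparisons, Thy1, Dcn and Pdgfra in 2, Cd34 in 1, and Pi16 and Dpp4 in none. Leaving out 1 library at a time left 4 to 5 of the 10 called against Sham, 2 to 6 against 5/6 Nx-HPi-Hp and 6 to 7 against 5/6 Nx-LPi-Lp. The count against 5/6 Nx-HPi-Hp was 2 without 5/6 Nx-HPi-Lp replicate 2, 5/6 Nx-HPi-Lp replicate 4, 5/6 Nx-HPi-Hp replicate 2 or 5/6 Nx-HPi-Hp replicate 3, and 3 without 5/6 Nx-HPi-Lp replicate 3 or 5/6 Nx-HPi-Hp replicate 1.

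**Figure D2:**
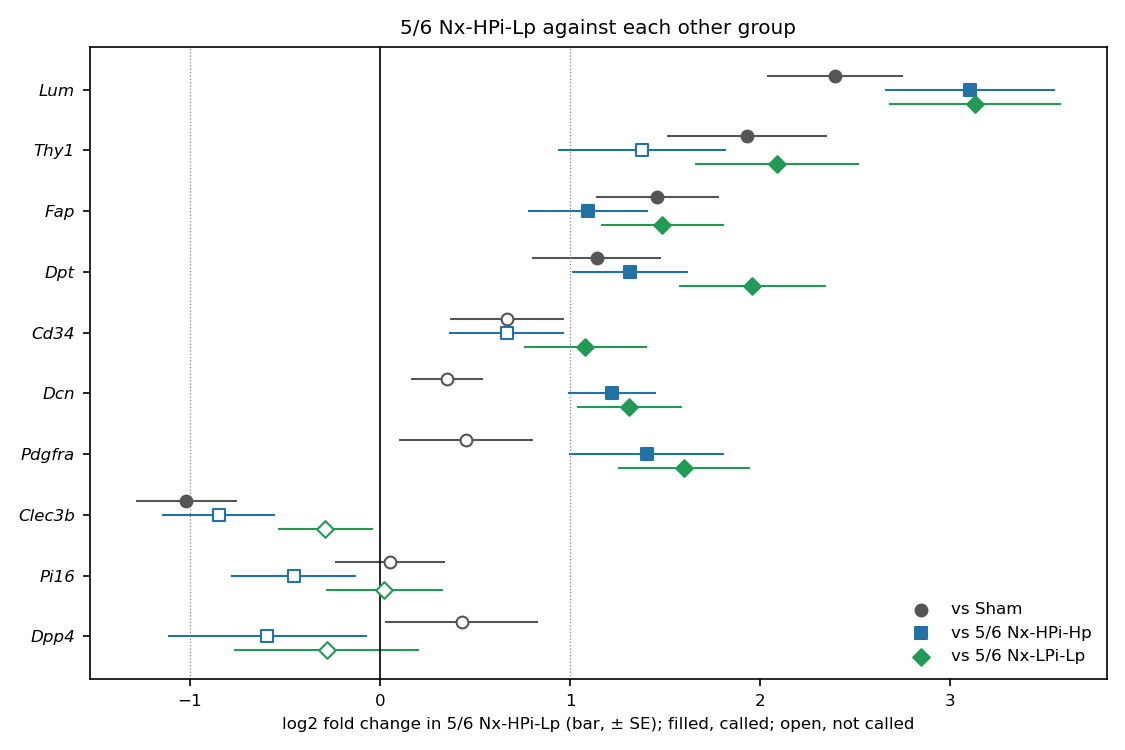
Log2 fold change of the 10 genes in 5/6 Nx-HPi-Lp mice against the Sham group, then 5/6 Nx-HPi-Hp, then 5/6 Nx-LPi-Lp, with bars of 1 SE; filled symbols were called and open symbols were not, and dotted lines mark the fold-change threshold. The points of Lum lie farthest to the right, at 2.39, 3.10 and 3.13, and Clec3b is the only gene to the left of 0 in all 3 comparisons.

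Lum (ENSMUSG00000036446, chr10:97565128-97572703, plus strand, build mm10 here and throughout) encodes lumican, a proteoglycan of collagen fibrils, and changed most. Its level in 5/6 Nx-HPi-Lp mice was 222, 801, 421 and 357 CPM, and 113, 89.3, 90.2 and 62.5 CPM in the Sham mice. It was 59.8, 59.0, 22.9 and 69.1 CPM in 5/6 Nx-HPi-Hp aortas and 42.0, 89.7, 40.3 and 35.8 CPM in 5/6 Nx-LPi-Lp aortas. Every 5/6 Nx-HPi-Lp mouse lay above all 12 others. The log2 fold change was 2.39 ± 0.36 (SE) against Sham (adjusted p = 0.000624), 3.10 ± 0.45 against 5/6 Nx-HPi-Hp (adjusted p = 0.00488) and 3.13 ± 0.45 against 5/6 Nx-LPi-Lp (adjusted p = 0.00308), which is 5.25-fold, 8.59-fold and 8.74-fold. The call held in all 8 fits that left out 1 library in each comparison, with the lowest log2 fold change at 1.97 against Sham.

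Dcn (ENSMUSG00000019929, chr10:97479609-97518143, plus strand) encodes decorin and lies next to Lum. Its group means in CPM had the same order as those of Lum, with a smaller difference between 5/6 Nx-HPi-Lp and Sham mice. The Dcn level was 953, 832, 629 and 584 CPM in Sham mice and 739, 1155, 858 and 943 CPM in 5/6 Nx-HPi-Lp aortas. It was 457, 376, 278 and 484 CPM in 5/6 Nx-HPi-Hp aortas and 314, 599, 308 and 274 CPM in 5/6 Nx-LPi-Lp aortas. The 5/6 Nx-HPi-Lp and Sham ranges overlapped, and all 5/6 Nx-HPi-Lp mice lay above every mouse of the other 5/6 Nx groups. Dcn was not called against Sham (log2 fold change 0.35 ± 0.19, adjusted p = 0.165) and was called higher than in 5/6 Nx-HPi-Hp mice (1.22 ± 0.23, adjusted p = 0.0116) and 5/6 Nx-LPi-Lp mice (1.31 ± 0.28, adjusted p = 0.0123). Both calls held in all 8 fits without 1 library.

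The ends of Dcn and Lum are 46984 bases apart on chromosome 10, with no annotated gene between them. The ratio of Lum to Dcn counts, which does not depend on library scaling, was 0.119, 0.107, 0.143 and 0.107 in the 4 Sham mice and 0.300, 0.694, 0.491 and 0.379 in 5/6 Nx-HPi-Lp mice. It was 0.0824 to 0.157 in 5/6 Nx-HPi-Hp mice and 0.131 to 0.150 in 5/6 Nx-LPi-Lp mice. All 5/6 Nx-HPi-Lp values lay above the 12 others. The mean log2 ratio was higher by 1.91 than in Sham, 1.83 than in 5/6 Nx-HPi-Hp and 1.70 than in 5/6 Nx-LPi-Lp mice, each with p = 0.0286 in a two-sided exact permutation test, the smallest p that 4 against 4 allows, and 0.0857 after adjustment over the 12 ratio tests, which is above 0.05.

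Dpt (ENSMUSG00000026574, chr1:164796644-164824266, plus strand) encodes dermatopontin, a matrix protein that binds decorin. Its level was 152, 476, 230.1 and 292 CPM in 5/6 Nx-HPi-Lp aortas and 191, 144, 117 and 88.0 CPM in Sham mice. It was 129, 118, 105 and 112 CPM in 5/6 Nx-HPi-Hp aortas and 65.7, 121, 52.1 and 58.8 CPM in 5/6 Nx-LPi-Lp aortas. 5/6 Nx-HPi-Lp replicate 1 lay within the Sham range, while all 5/6 Nx-HPi-Lp mice lay above every mouse of the other 5/6 Nx groups. The log2 fold change was 1.14 ± 0.34 against Sham (adjusted p = 0.0215), 1.31 ± 0.30 against 5/6 Nx-HPi-Hp (adjusted p = 0.0232) and 1.96 ± 0.39 against 5/6 Nx-LPi-Lp (adjusted p = 0.00962). The call against Sham was lost without 5/6 Nx-HPi-Lp replicate 2 (log2 fold change 0.80) and without Sham replicate 2, 3 or 4 (adjusted p = 0.0548, 0.0655 and 0.0671). The call against 5/6 Nx-HPi-Hp was lost without 5/6 Nx-HPi-Lp replicate 2 (log2 fold change 0.96) and without 5/6 Nx-HPi-Lp replicate 4 or 5/6 Nx-HPi-Hp replicate 2 or 3 (adjusted p = 0.0633, 0.0673 and 0.0582).

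Clec3b (ENSMUSG00000025784, chr9:123150946-123157432, plus strand) encodes tetranectin, a secreted lectin that binds plasminogen, and was the gene of the 10 that fell. Its level was 253, 192, 181 and 138 CPM in Sham mice and 54.7, 131, 75.0 and 103 CPM in 5/6 Nx-HPi-Lp aortas. It was 185, 137, 109 and 230.02 CPM in 5/6 Nx-HPi-Hp aortas and 119.8, 115, 119.9 and 91.9 CPM in 5/6 Nx-LPi-Lp aortas. All 5/6 Nx-HPi-Lp mice lay below all Sham mice and overlapped with both other groups. Clec3b fell by 1.02 ± 0.27 on the log2 scale against Sham (adjusted p = 0.0120). It was not called against 5/6 Nx-HPi-Hp (log2 fold change -0.85 ± 0.30, adjusted p = 0.0877) or 5/6 Nx-LPi-Lp (-0.29 ± 0.25, adjusted p = 0.449). The change against Sham lay at the fold-change threshold. It was -0.82 without 5/6 Nx-HPi-Lp replicate 1, -0.92 without 5/6 Nx-HPi-Lp replicate 3 and -0.87 without Sham replicate 1, with adjusted p of 0.0182, 0.0393 and 0.0376. It also fell short of the threshold with 10 counts required in every library (-0.99), with all 16 libraries in 1 fit (-0.97) and, narrowly, with mitochondrial genes left out (-0.9995).

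Fap (ENSMUSG00000000392, chr2:62500943-62574075, minus strand), the gene of the fibroblast activation protein, a surface peptidase, was low in every group and higher in 5/6 Nx-HPi-Lp mice. Its level was 12.7, 37.2, 15.4 and 20.8 CPM in 5/6 Nx-HPi-Lp aortas, against 10.02, 7.34, 9.02 and 6.21 CPM in Sham mice. It was 8.98, 11.3, 10.3 and 9.95 CPM in 5/6 Nx-HPi-Hp aortas and 7.69, 8.28, 8.16 and 6.95 CPM in 5/6 Nx-LPi-Lp aortas. The lowest 5/6 Nx-HPi-Lp mouse lay above the highest of the 12 others. The log2 fold change was 1.46 ± 0.32 against Sham (adjusted p = 0.00534), 1.10 ± 0.32 against 5/6 Nx-HPi-Hp (adjusted p = 0.0477) and 1.48 ± 0.32 against 5/6 Nx-LPi-Lp (adjusted p = 0.0143). The calls against Sham and 5/6 Nx-LPi-Lp held without any 1 library. The call against 5/6 Nx-HPi-Hp was lost without 5/6 Nx-HPi-Lp replicate 2 (log2 fold change 0.69), 3 or 4 and without any of the 5/6 Nx-HPi-Hp libraries, with adjusted p from 0.0558 to 0.109, and it was also lost with RLE scaling (adjusted p = 0.0509).

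Dpp4 (ENSMUSG00000035000, chr2:62330073-62412231, minus strand) encodes dipeptidyl peptidase 4, a related surface peptidase, and lies 88711 bases from Fap on chromosome 2. Its level was 3.39, 6.60, 6.50 and 5.14 CPM in Sham mice and 2.46, 6.67, 7.79 and 11.2 CPM in 5/6 Nx-HPi-Lp aortas. It was 22.3, 7.02, 7.65 and 5.52 CPM in 5/6 Nx-HPi-Hp aortas and 8.72, 13.9, 3.35 and 8.14 CPM in 5/6 Nx-LPi-Lp aortas. All groups overlapped, and Dpp4 was called in no comparison, with log2 fold changes of 0.43 ± 0.40 against Sham (adjusted p = 0.422), -0.59 ± 0.52 against 5/6 Nx-HPi-Hp (adjusted p = 0.468) and -0.28 ± 0.49 against 5/6 Nx-LPi-Lp (adjusted p = 0.722). The ratio of Fap to Dpp4 counts was 5.15, 5.58, 1.97 and 1.86 in 5/6 Nx-HPi-Lp mice, 1.11 to 2.95 in Sham, 0.402 to 1.80 in 5/6 Nx-HPi-Hp and 0.595 to 2.43 in 5/6 Nx-LPi-Lp mice. The groups did not overlap against 5/6 Nx-HPi-Hp alone (difference in mean log2 ratio 1.52, two-sided exact permutation p = 0.0286, adjusted p = 0.0857), and the exact permutation p was 0.114 against Sham and 0.0857 against 5/6 Nx-LPi-Lp.

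Dpp4 was highest where genes of the mesothelium, the cell layer on the outside of organs, were highest. The 6 mesothelial genes Msln, Upk3b, Lrrn4, Wt1, Krt19 and Bnc1, none of them at 0 in any library, summed to 308, 77.5, 89.5 and 54.7 CPM in 5/6 Nx-HPi-Hp aortas and 77.9, 223, 15.9 and 142 CPM in 5/6 Nx-LPi-Lp aortas. Their sum was 17.3, 44.3, 78.9 and 50.5 CPM in Sham and 61.3, 54.5, 111 and 86.6 CPM in 5/6 Nx-HPi-Lp aortas. The libraries with the highest Dpp4, 5/6 Nx-HPi-Hp replicate 1 and 5/6 Nx-LPi-Lp replicate 2, also had the highest mesothelial sums. Below them the order differed. Dpp4 was 11.2 CPM in 5/6 Nx-HPi-Lp replicate 4 at a sum of 86.6 CPM, and 8.14 CPM in 5/6 Nx-LPi-Lp replicate 4 at 142 CPM. Over the 16 libraries, the 3 genes most like Dpp4 by Pearson's r of log2(CPM + 1) were Hpgd (0.895), Muc16 (0.883) and Upk3b (0.880), and Muc16 and Upk3b are known from mesothelium. Upk3b is also 1 of the 6 summed genes. The part of mesothelial cells in the Dpp4 values was not tested.

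**Figure D3:**
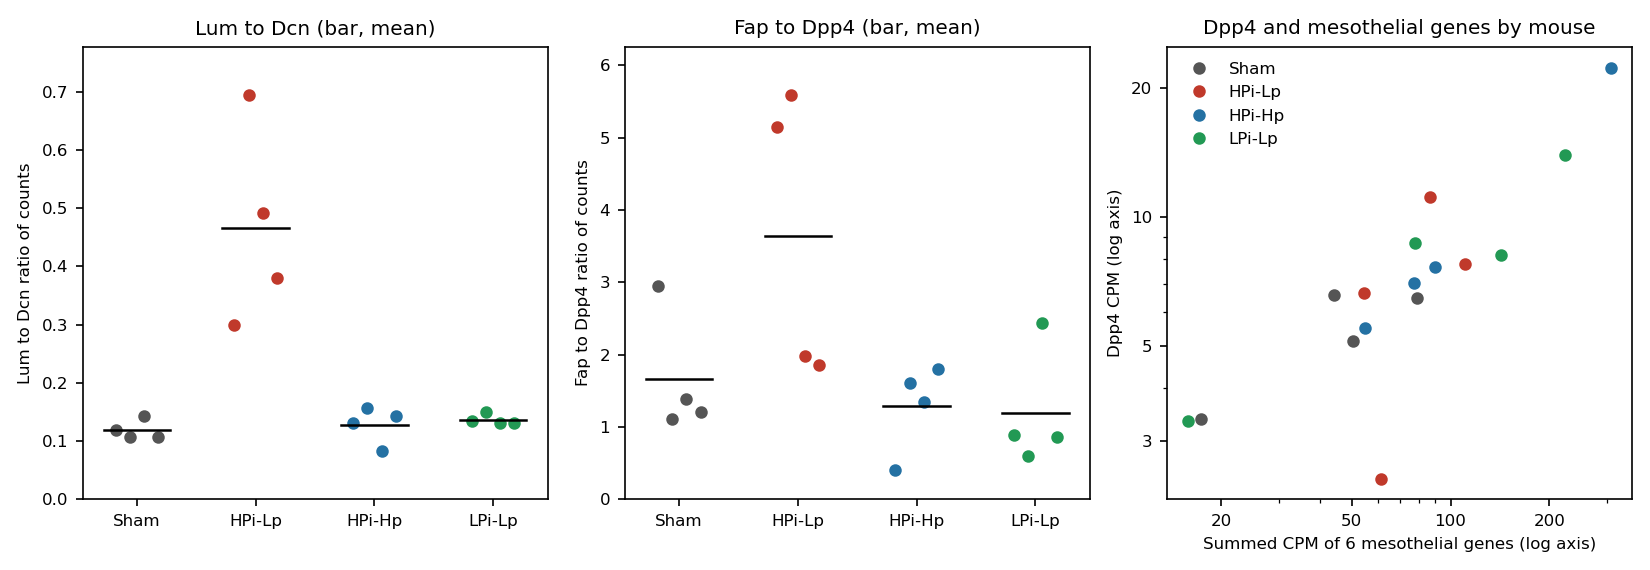
Ratio of Lum to Dcn counts and of Fap to Dpp4 counts in each mouse (left and middle, bar at the mean of 4), and Dpp4 in CPM against the summed CPM of 6 mesothelial genes on log axes (right), 1 point per mouse. The Lum to Dcn ratio was 0.300 to 0.694 in 5/6 Nx-HPi-Lp mice and at most 0.157 in the others, and the point at the upper right is 5/6 Nx-HPi-Hp replicate 1.

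Pdgfra (ENSMUSG00000029231, chr5:75152292-75198215, plus strand), the receptor gene, was lower after 5/6 Nx on both control diets than on the HPi-Lp diet. Its level was 41.9, 157, 85.03 and 84.0 CPM in 5/6 Nx-HPi-Lp aortas and 93.4, 81.0, 58.1 and 46.2 CPM in Sham mice, groups that overlapped. It was 40.7, 29.2, 17.2 and 52.9 CPM in 5/6 Nx-HPi-Hp aortas and 29.9, 35.6, 32.5 and 24.5 CPM in 5/6 Nx-LPi-Lp aortas. The log2 fold change in 5/6 Nx-HPi-Lp mice was 0.45 ± 0.35 against Sham (adjusted p = 0.333), 1.40 ± 0.41 against 5/6 Nx-HPi-Hp (adjusted p = 0.0492) and 1.60 ± 0.35 against 5/6 Nx-LPi-Lp (adjusted p = 0.0137). The call against 5/6 Nx-LPi-Lp, where the groups did not overlap, held without any 1 library. The call against 5/6 Nx-HPi-Hp, where 5/6 Nx-HPi-Lp replicate 1 lay within the 5/6 Nx-HPi-Hp range, was lost without 5/6 Nx-HPi-Lp replicate 2, 3 or 4 or 5/6 Nx-HPi-Hp replicate 1, 2 or 3, with adjusted p from 0.0868 to 0.136, and with scaling by library totals (adjusted p = 0.0623).

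Thy1 (ENSMUSG00000032011, chr9:44043384-44048579, plus strand) encodes a surface glycoprotein of fibroblasts that neurons and T cells also carry. Its level was 39.9, 213, 89.3 and 88.6 CPM in 5/6 Nx-HPi-Lp aortas and 25.5, 33.2, 23.1 and 35.3 CPM in Sham mice. It was 59.0, 29.6, 30.4 and 47.8 CPM in 5/6 Nx-HPi-Hp aortas and 27.9, 22.8, 28.4 and 23.5 CPM in 5/6 Nx-LPi-Lp aortas. The 5/6 Nx-HPi-Lp mice lay above all Sham and 5/6 Nx-LPi-Lp mice, with log2 fold changes of 1.93 ± 0.42 (adjusted p = 0.00493) and 2.09 ± 0.43 (adjusted p = 0.0115), and both calls held without any 1 library. Against 5/6 Nx-HPi-Hp mice the groups overlapped and Thy1 was not called (1.38 ± 0.44, adjusted p = 0.0663), but it was called without 5/6 Nx-HPi-Lp replicate 1 (1.65, adjusted p = 0.0198) and by DESeq2 (1.37, adjusted p = 0.00987). The summed CPM of 8 genes of sympathetic neurons was 1687, 74.9, 317 and 1224 in 5/6 Nx-HPi-Lp mice and 80.8 to 119 in Sham mice. It was 102 to 350 in 5/6 Nx-HPi-Hp and 68.6 to 250 in 5/6 Nx-LPi-Lp mice. Thy1 was highest in 5/6 Nx-HPi-Lp replicate 2, where that sum was the lowest of the group and 2 of the 8 genes were at 0. Of the 8, 3 were also at 0 in Sham replicate 2, 2 in Sham replicate 4 and 1 in each of 5/6 Nx-LPi-Lp replicates 1 and 2. The summed CPM of 8 T cell genes was 5.48 to 12.01 in 5/6 Nx-HPi-Lp mice and 15.9 to 102 in Sham mice. It was 6.97 to 39.9 in 5/6 Nx-HPi-Hp and 1.95 to 34.1 in 5/6 Nx-LPi-Lp mice. The part of neurons and T cells in the Thy1 values was not tested.

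Cd34 (ENSMUSG00000016494, chr1:194938819-194961279, plus strand) encodes a sialomucin of fibroblasts and of endothelium. Its level was 99.2, 316, 167 and 214 CPM in 5/6 Nx-HPi-Lp aortas and 157, 139, 125 and 98.0 CPM in Sham mice. It was 105 to 148 CPM in 5/6 Nx-HPi-Hp aortas and 84.2, 128, 82.7 and 84.8 CPM in 5/6 Nx-LPi-Lp aortas. The 5/6 Nx-HPi-Lp range overlapped with that of each other group. Cd34 was called higher against 5/6 Nx-LPi-Lp mice (log2 fold change 1.08 ± 0.32, adjusted p = 0.0429), and not against Sham (0.67 ± 0.30, adjusted p = 0.0982) or 5/6 Nx-HPi-Hp (0.67 ± 0.30, adjusted p = 0.165). The call was lost without 5/6 Nx-HPi-Lp replicate 2 (0.74), 3 or 4 or 5/6 Nx-LPi-Lp replicate 1, 3 or 4, with adjusted p from 0.0599 to 0.106. The summed CPM of 8 endothelial genes was 824 to 1188 in Sham, 995 to 1224 in 5/6 Nx-HPi-Lp, 843 to 1180.3 in 5/6 Nx-HPi-Hp and 836 to 1125 in 5/6 Nx-LPi-Lp mice. The genes in that sum did not all move alike. Against Sham, 3 of the 8 were called higher in 5/6 Nx-HPi-Lp mice and 0 lower, where 15.0% and 7.18% of all genes were. Their median log2 fold change was 0.83. With no overlap, 5 lay higher and 1 lower, beside 18.8% and 24.2% of all genes. Against each other 5/6 Nx group, 0 of the 8 were called. The part of endothelium in the Cd34 values was not tested.

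Pi16 (ENSMUSG00000024011, chr17:29318877-29329413, plus strand) encodes peptidase inhibitor 16, known from resting adventitial fibroblasts. Its level was 351, 301, 327 and 215 CPM in Sham mice and 151, 419, 386 and 241 CPM in 5/6 Nx-HPi-Lp aortas. It was 449.9, 429, 255 and 512 CPM in 5/6 Nx-HPi-Hp aortas and 301, 320.2, 344 and 218 CPM in 5/6 Nx-LPi-Lp aortas. All 4 ranges overlapped. The log2 fold change in 5/6 Nx-HPi-Lp mice was 0.052 ± 0.29 against Sham (adjusted p = 0.904), -0.45 ± 0.33 against 5/6 Nx-HPi-Hp (adjusted p = 0.375) and 0.023 ± 0.31 against 5/6 Nx-LPi-Lp (adjusted p = 0.968). A p above the threshold does not show equal levels, and in fits without 1 library the change against Sham ran from -0.14 to 0.29.

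The promoters of Pdgfra and Dpt, which were called higher in 5/6 Nx-HPi-Lp mice against both other groups of 5/6 Nx mice, and of Pi16, which was called in no comparison, are shown so that the letters can be compared. Promoters of 5 of the 10 genes matched by symbol (Pdgfra, Pi16, Dpp4, Dpt and Cd34) in the RefSeq table of GRCm38.p6. Each window has 230 bases, from 250 to 21 bases before the RefSeq start, written 5′ to 3′ on the gene's strand, and capitals mark a match to 1 of the motifs searched. The windows are Pdgfra chr5:75152001-75152230, Dpt chr1:164796413-164796642 and Pi16 chr17:29318632-29318861, all on the plus strand.
Pdgfra: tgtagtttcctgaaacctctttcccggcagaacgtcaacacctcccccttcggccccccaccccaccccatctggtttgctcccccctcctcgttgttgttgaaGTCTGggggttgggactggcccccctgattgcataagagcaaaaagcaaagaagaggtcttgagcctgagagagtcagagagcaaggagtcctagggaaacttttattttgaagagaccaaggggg
Dpt: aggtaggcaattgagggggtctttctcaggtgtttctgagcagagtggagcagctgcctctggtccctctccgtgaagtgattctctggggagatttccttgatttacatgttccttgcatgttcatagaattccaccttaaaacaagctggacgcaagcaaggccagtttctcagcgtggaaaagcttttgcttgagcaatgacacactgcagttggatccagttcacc
Pi16: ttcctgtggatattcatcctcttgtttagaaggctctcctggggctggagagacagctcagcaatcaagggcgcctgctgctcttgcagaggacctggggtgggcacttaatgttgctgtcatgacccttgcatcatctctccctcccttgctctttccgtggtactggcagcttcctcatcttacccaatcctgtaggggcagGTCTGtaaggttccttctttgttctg
The motifs, searched on both strands, were the TATA box TATAAA, present in 11.8% of the 32851 promoters of the table, the AP-1 motif TGANTCA (6.34%), the RUNX motif TGTGGT (13.2%), the SMAD motif CAGAC (39.7%) and the GC box GGGCGG (29.8%). The letters of CAGAC were found on the reverse strand in Pdgfra, 146 to 142 bases before the start, and in Pi16, 46 to 42 bases before it. TATAAA was found in Dpp4, 227 to 222 bases before the start. None of the 5 motifs was found in the windows of Dpt and Cd34, and a match is a description of letters.

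Between the groups that were not on the HPi-Lp diet after 5/6 Nx, fewer of the 10 genes were called. In 5/6 Nx-LPi-Lp mice against Sham mice, Pdgfra fell by 1.09 ± 0.22 on the log2 scale (adjusted p = 0.00619) with no overlap, and it was the 1 gene called, where 10.9% of all genes were called, 8.79% higher and 2.08% lower. Of the 10, 2 were lower with no overlap, Pdgfra and Clec3b, and 0 higher, beside 22.1% and 13.6% of all genes. Dcn (-0.91 ± 0.27, adjusted p = 0.0314) and Clec3b (-0.68 ± 0.18, adjusted p = 0.0177) passed the adjusted p and not the fold-change threshold. The Pdgfra call was lost without 5/6 Nx-LPi-Lp replicate 4 (-0.99) or Sham replicate 1 (-0.93). Without 5/6 Nx-LPi-Lp replicate 2, Dcn (-1.24, adjusted p = 0.00435), Lum (-1.09, adjusted p = 0.00521) and Dpt (-1.11, adjusted p = 0.0107) were called lower as well, which made 4 of 10. Dpp4 was called higher without 5/6 Nx-LPi-Lp replicate 3 (1.010, adjusted p = 0.0307) and Dcn lower without Sham replicate 4 (-1.01, adjusted p = 0.0383).

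In 5/6 Nx-HPi-Hp mice against Sham mice, edgeR called 0 of the 10 genes, where it called 12.2% of all genes, 9.41% higher and 2.75% lower. Of the 10, 1 was lower with no overlap, Dcn, and 0 higher, beside 19.9% and 13.9% of all genes. Of the 10, 6 had an unadjusted p under 0.05, as had 7224 of the 15882 genes tested, and DESeq2 and limma on log2(FPKM + 1) also called 0. Dcn (-0.84 ± 0.22, adjusted p = 0.0204) and Pdgfra (-0.93 ± 0.31, adjusted p = 0.0473) passed the adjusted p and not the fold-change threshold. Pdgfra was called lower without 5/6 Nx-HPi-Hp replicate 4 (-1.18, adjusted p = 0.0106) or Sham replicate 4 (-1.09, adjusted p = 0.0413), and Dpp4 higher without 5/6 Nx-HPi-Hp replicate 4 (1.27, adjusted p = 0.0266). With scaling by library totals alone, which moved the 10 genes by -0.22 to -0.18 on the log2 scale here and by -0.25 to -0.24 for 5/6 Nx-LPi-Lp against Sham, Dcn and Pdgfra were called lower in both comparisons and Dpt in the latter.

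For 5/6 Nx-HPi-Hp against 5/6 Nx-LPi-Lp mice, edgeR called 0 of the 10 genes and 0 of the 15850 genes tested, of which 1420 had an unadjusted p under 0.05. DESeq2 called 79 genes, none of the 10, and limma on log2(FPKM + 1) called 0 genes. The unadjusted p was under 0.05 for 3 of the 10 genes, Thy1 (0.68 ± 0.22, adjusted p = 0.524), Dpt (0.62 ± 0.26, adjusted p = 0.540) and Clec3b (0.54 ± 0.22, adjusted p = 0.540). The 5/6 Nx-HPi-Hp mice lay above all 5/6 Nx-LPi-Lp mice for Thy1 and Fap, 2 of the 10 genes, where the same held for 2.93% of all genes tested. None of the 10 lay lower without overlap, beside 2.22% of all genes.

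The make-up of the 10 genes was compared within each mouse on the FPKM scale, which allows for gene length. In Sham mice Clec3b was the largest, at 35.1% ± 1.04 (SD, n = 4) of the summed FPKM of the 10, followed by Dcn at 23.5% ± 1.79, Dpt at 14.1% ± 1.36, Pi16 at 13.8% ± 1.58 and Lum at 6.62% ± 0.410. In 5/6 Nx-HPi-Lp mice Lum held 23.5% ± 3.49, Dcn 22.5% ± 5.18, Dpt 21.7% ± 2.20, Clec3b 12.4% ± 1.65 and Pi16 10.04% ± 2.66. The Clec3b share was 35.4% ± 3.45 in 5/6 Nx-HPi-Hp and 33.5% ± 4.74 in 5/6 Nx-LPi-Lp mice, and the Lum share was 4.497% ± 1.13 and 5.99% ± 1.60. The Lum, Dpt and Clec3b shares of 5/6 Nx-HPi-Lp mice did not overlap with those of any other mouse. This included 5/6 Nx-HPi-Lp replicate 1, in which the summed level of the 10 genes lay within the Sham range. Pi16 held 22.1% ± 2.09 in 5/6 Nx-HPi-Hp and 21.9% ± 3.26 in 5/6 Nx-LPi-Lp mice. The shares of a mouse have a fixed total, so a larger share of any gene leaves less for the others. These shares are descriptions with no test.

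**Figure D4:**
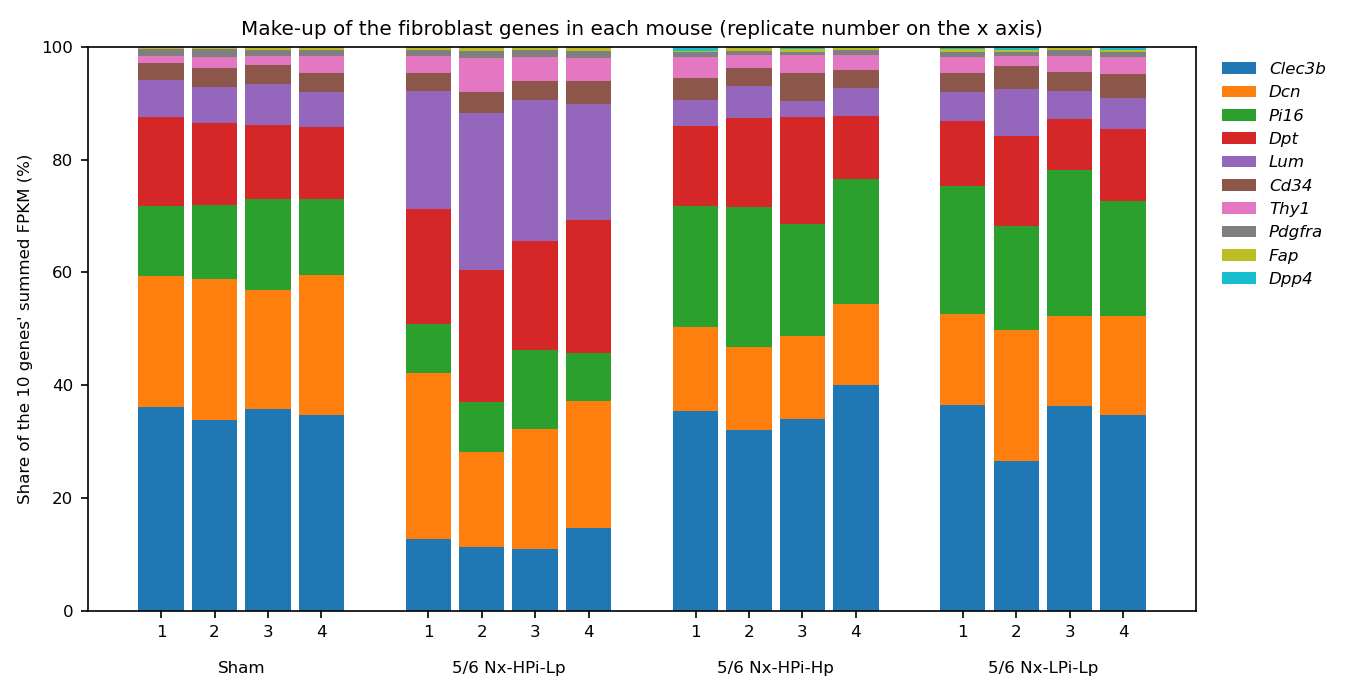
Share of each of the 10 genes in their summed FPKM, in percent, with 1 stacked bar per mouse and the replicate number under it. In the 5/6 Nx-HPi-Lp bars the Clec3b part is 10.96% to 14.6% and the Lum part 20.4% to 27.8%.

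Other fibroblast genes were called in both directions. Of 23 of them, 2 were called higher and 3 lower in 5/6 Nx-HPi-Lp than in Sham mice, where 15.0% and 7.18% of all genes were. The median log2 fold change of the 23 was 0.15. The higher were Cxcl12, a chemokine gene (1.62, adjusted p = 0.000946), and Ly6a, which encodes Sca-1 (1.31, adjusted p = 0.00224). The lower were the semaphorin gene Sema3c (-2.51, adjusted p = 6.74e-06), Sfrp2, which encodes a secreted Wnt-binding protein (-1.93, adjusted p = 0.00384), and Pcolce2, a procollagen processing enhancer gene (-1.57, adjusted p = 0.000130). Against 5/6 Nx-HPi-Hp mice Cxcl12 (1.96, adjusted p = 0.00488) was called higher and Sema3c (-1.31, adjusted p = 0.0145) lower, with a median of 0.39. There 5.01% of all genes were called higher and 3.11% lower. Against 5/6 Nx-LPi-Lp mice 7 were called higher and 1, Sema3c (-1.35, adjusted p = 0.00287), lower, with a median of 0.70. All genes had shares of 7.90% called higher and 3.98% lower in that comparison. Sema3c was 129.7 to 156 CPM in Sham and 22.7 to 25.7 CPM in 5/6 Nx-HPi-Lp aortas.

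Lum and Dcn belong to the small leucine-rich proteoglycans, and the other genes of that family that were called in 5/6 Nx-HPi-Lp mice against Sham mice fell, with 1 exception. Over the 9 tested (Kera was at 0 in every library), the median log2 fold change was -0.87. Of the 9, 4 were called lower, where 7.18% of all genes were called lower and 15.0% higher. The 4 were Ogn (-3.50, adjusted p = 1.22e-05), Omd (-3.07, adjusted p = 0.000158), Ecm2 (-2.81, adjusted p = 1.46e-05) and Prelp (-2.02, adjusted p = 2.66e-05). Ogn, which encodes osteoglycin, was 774 to 891 CPM in Sham mice and 49.7 to 91.2 CPM in 5/6 Nx-HPi-Lp aortas, 103 to 435 CPM in 5/6 Nx-HPi-Hp aortas and 168 to 330.4 CPM in 5/6 Nx-LPi-Lp aortas. Epyc, a cartilage proteoglycan gene, was called higher (3.41, adjusted p = 0.00964) at low levels, 0.395 to 1.00 CPM in Sham and 1.13 to 21.6 CPM in 5/6 Nx-HPi-Lp aortas. Against 5/6 Nx-HPi-Hp mice Ogn (-1.67, adjusted p = 0.0261) and Ecm2 (-1.52, adjusted p = 0.0124) were called lower and none higher. Against 5/6 Nx-LPi-Lp mice Ogn (-1.84, adjusted p = 0.00342), Omd (-1.80, adjusted p = 0.0175), Ecm2 (-1.66, adjusted p = 0.00265) and Prelp (-1.35, adjusted p = 0.00380) were called lower and Epyc (4.06, adjusted p = 0.0246) higher. All genes had shares of 3.11% and 3.98% called lower in these 2 comparisons. The other 5/6 Nx groups were also lower than Sham in this family. There 4 of the 9 were called lower in 5/6 Nx-HPi-Hp and 3 in 5/6 Nx-LPi-Lp mice, and none higher. The medians were -0.65 and -0.70, and Ogn was at -1.81 (adjusted p = 0.0103) and -1.62 (adjusted p = 0.00292). Of all genes, 2.75% and 2.08% were called lower there.

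Genes of myofibroblasts, the matrix-making form of activated fibroblasts, and of fibrillar collagens were called higher in 5/6 Nx-HPi-Lp mice in all 3 comparisons, and none was called lower. Of 11 myofibroblast genes, 6 were called higher against Sham, 6 against 5/6 Nx-HPi-Hp and 8 against 5/6 Nx-LPi-Lp, with median log2 fold changes of 1.48, 1.26 and 1.55. Their summed level was 3042 to 4979 CPM in 5/6 Nx-HPi-Lp aortas and 2902 to 3716 CPM in Sham mice, ranges that overlapped. Postn, the periostin gene, lay lower with no overlap, at 498 to 802 CPM beside 1093 to 1341 CPM in Sham mice (log2 fold change -0.72, adjusted p = 0.00534), and did not reach the fold-change threshold. It was chosen after its values were seen. Cthrc1, a marker of activated fibroblasts, was 8.26 to 101 CPM in 5/6 Nx-HPi-Lp aortas and at most 1.26 CPM in the others (log2 fold change 5.69 against Sham, adjusted p = 0.000274). Of 7 fibrillar collagen genes, 6 were called higher against Sham, 6 against 5/6 Nx-HPi-Hp and 7 against 5/6 Nx-LPi-Lp, with medians of 2.23, 2.08 and 2.42. Beside both lists, 15.0%, 5.01% and 7.90% of all genes tested were called higher in the 3 comparisons. Col11a1, known from cartilage and tumour stroma, was 10.3 to 38.9 CPM in 5/6 Nx-HPi-Lp aortas and 0.753 to 1.96 CPM in 5/6 Nx-HPi-Hp aortas (log2 fold change 3.75, adjusted p = 0.00497). The 7 collagen genes summed to 5826 to 29772 CPM in 5/6 Nx-HPi-Lp aortas and 3527 to 4633 CPM in Sham mice. In 5/6 Nx-HPi-Hp against Sham mice, 2 of the myofibroblast genes and 1 of the collagen genes were called higher and 0 lower. In 5/6 Nx-LPi-Lp against Sham mice, 1 myofibroblast gene was called higher and 2 lower, and 0 collagen genes were called.

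**Figure D5:**
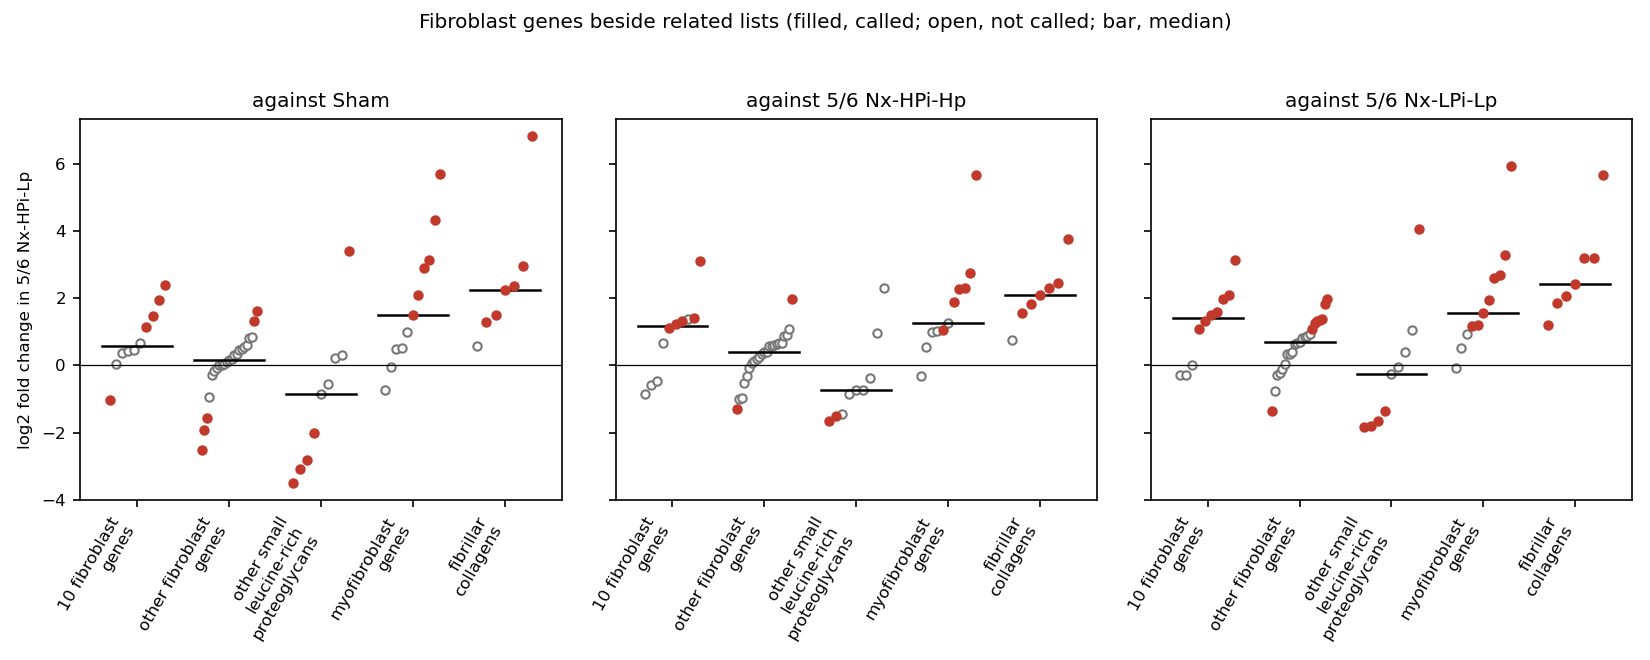
Log2 fold change of each gene of 5 lists in 5/6 Nx-HPi-Lp mice against the Sham group, then 5/6 Nx-HPi-Hp, then 5/6 Nx-LPi-Lp; 1 point per gene tested, filled where called, with a bar at the median. The medians of the fibrillar collagens are 2.23, 2.08 and 2.42, and those of the other small leucine-rich proteoglycans -0.87, -0.73 and -0.25.

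Among the ligands and the other receptor genes of the PDGF system, 6 genes were tested. Pdgfd, a ligand gene, was called lower in 5/6 Nx-HPi-Lp mice against Sham (-2.48, adjusted p = 5.50e-05) and 5/6 Nx-LPi-Lp mice (-1.24, adjusted p = 0.0149). Pdgfc, a ligand of the receptor that Pdgfra encodes, was called higher against 5/6 Nx-HPi-Hp mice (1.05, adjusted p = 0.0290), and no other gene of the 6 was called in these comparisons. Of the other genes of the dipeptidyl peptidase family, Dpp6 was called higher against Sham and 5/6 Nx-LPi-Lp mice and Dpp10 lower. Against 5/6 Nx-HPi-Hp mice Dpp6 had an adjusted p of 0.0543 and Dpp10 did not pass the filter on low counts. Dpp6 was 1.97 to 21.6 CPM in 5/6 Nx-HPi-Lp aortas, at most 1 count in any Sham library and 0.0542 to 1.48 CPM in 5/6 Nx-LPi-Lp aortas. Dpp10 was 1.39 to 2.71 CPM in Sham, 0.596 to 1.76 CPM in 5/6 Nx-LPi-Lp and 0 to 0.353 CPM in 5/6 Nx-HPi-Lp aortas. Both encode partners of potassium channels of neurons without peptidase activity.

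Markers of other cell types moved with the groups too. The 7 smooth muscle genes (Myh11, Acta2 and others, none at 0) summed to 21708 to 25826 CPM in Sham mice, 2227 to 5046 CPM in 5/6 Nx-HPi-Lp aortas, 6548 to 23251 CPM in 5/6 Nx-HPi-Hp aortas and 7606 to 17704 CPM in 5/6 Nx-LPi-Lp aortas, and all 7 were called lower in 5/6 Nx-HPi-Lp than in Sham mice. The 6 macrophage genes, none at 0, summed to 622, 2192, 1334 and 1146 CPM in 5/6 Nx-HPi-Lp aortas, 189.9 to 294 CPM in Sham, 258 to 515 CPM in 5/6 Nx-HPi-Hp and 182 to 311 CPM in 5/6 Nx-LPi-Lp aortas, and all 6 were called higher in 5/6 Nx-HPi-Lp mice in each comparison. The macrophage sum was highest in 5/6 Nx-HPi-Lp replicate 2 and lowest in replicate 1, as were the levels of 9 of the 10 fibroblast genes, Clec3b and Pi16 among them. The 6 mast cell genes summed to 149 to 175 CPM in 5/6 Nx-HPi-Lp and 20.5 to 45.8 CPM in Sham mice, and the 6 adipocyte genes to 1417 to 2631 and 565 to 1001 CPM. The 4 brown adipocyte genes summed to 571 to 1906 CPM in 5/6 Nx-HPi-Lp and 329.6 to 694 CPM in Sham mice, the 4 pericyte genes to 302 to 683 and 1646 to 1935 CPM, and the 6 kidney tubule genes to 1.10 to 2.46 and 1.62 to 3.32 CPM. In 5/6 Nx-HPi-Hp aortas the mast cell sum was 72.2 to 402 CPM and the adipocyte sum 852 to 3277 CPM. The brown adipocyte, pericyte and kidney tubule sums there were 764 to 2674, 357 to 1430 and 0.900 to 5.38 CPM. For 5/6 Nx-LPi-Lp aortas, the mast cell sum was 54.6 to 184 CPM and the adipocyte sum 1313 to 2900 CPM. Brown adipocyte, pericyte and kidney tubule sums in that group were 1333 to 4853, 391 to 987 and 1.79 to 5.52 CPM. For 5/6 Nx-HPi-Lp mice, no mast cell, adipocyte, brown adipocyte, pericyte or kidney tubule gene was called against the 5/6 Nx-HPi-Hp group. Against the 5/6 Nx-LPi-Lp group, the adipocyte gene Retn was called higher (1.97, adjusted p = 0.0174). The brown adipocyte gene Cidea was called lower there (-1.54, adjusted p = 0.0209), and no other gene of these cell types was called. The part of a changed mix of cells in the results above was not tested.

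The genes named here are each the one called with the largest change against Sham in its cell type list. Myh11 of smooth muscle was 477 to 1159 CPM in 5/6 Nx-HPi-Lp and 5943 to 6729.8 CPM in Sham mice, and Wt1 of mesothelium 2.20 to 5.80 and 0.732 to 2.10 CPM. Lyz2, a lysozyme gene of macrophages, was 338 to 1333 CPM in 5/6 Nx-HPi-Lp and 86.9 to 158 CPM in Sham mice. Cma1, a mast cell chymase gene, was 36.4 to 50.1 and 0.539 to 5.68 CPM, and Retn, the resistin gene of adipocytes, 94.8 to 419.6 and 8.36 to 15.7 CPM. The ranges were apart for these genes and for those named next, except Cox8b. All were picked for the size of their change, so ranges apart are no further result. Over all genes tested, the ranges were apart for 18.8% that were higher in 5/6 Nx-HPi-Lp mice and 24.2% that were lower. Emcn of endothelium was 33.8 to 61.6 and 8.48 to 15.1 CPM. Rgs5 of pericytes was 132 to 484 and 1302 to 1600.4 CPM, and Cox8b of brown adipocytes 87.2 to 228 and 42.4 to 90.0 CPM. Npy, a neuropeptide gene, was 1.27 to 133 and 0 to 0.316 CPM, Dntt of thymocytes 0 to 0.315 and 1.71 to 10.2 CPM, and Cdh16 of kidney tubule 0 to 0.252 and 0.902 to 2.93 CPM.

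Over the 16 libraries, the genes most like 8 of the others were found by Pearson's r of log2(CPM + 1) among the 11643 genes whose mean was 5 CPM or more. The libraries share depth and cell mix, so the values are descriptions. For Lum they were Smap2 (0.975), Lgmn and Emp1, for Thy1 Mki67 (0.970), Nckap1l and Rac2, for Dpt Medag (0.969), Bicc1 and Apaf1 and for Fap Rab3il1 (0.954), Pigt and Cybb. Mki67 is a gene of dividing cells, and Cybb, Nckap1l and Rac2 are known from myeloid cells. For Pdgfra they were Sfrp1 (0.948), Lrp1 and Txndc17, for Dcn Nfkb1 (0.926), Sec23ip and Fam126a, for Cd34 Anpep (0.938), Tmem119 and Pf4 and for Clec3b Lhpp (0.918), Cant1 and Sfrp2. Among the 10 genes, r was 0.940 for Dpt with Cd34, 0.921 for Pdgfra with Dcn and -0.242 for Lum with Clec3b.

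The count table lists genes that overlap Pdgfra, Dpp4, Dpt and Cd34, and the largest of them had 0.904% as many counts over the 16 libraries as the gene it overlaps (Gm13561, antisense to Dpp4). Reads that fall in both genes of such a pair were not measured, and the labels do not say whether the counting used strand.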

How the data were processed

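Poly-A RNA of the aortas was sequenced, 1 library per mouse. The authors mapped reads to mm10 with HISAT2 and deposited whole-number counts per gene from featureCounts 1.5.0-p3. Settings for strand and for reads with several positions are not given in the sources used here. The authors also deposited FPKM, which equal counts divided by gene length and by a scale for each library. That scale is DESeq2's size factor of the library times the geometric mean of the 16 library totals. Sample groups were taken from the labels. The 10 genes and all lists were chosen with earlier results of these data known.

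Counts were filtered with filterByExpr, scaled by TMM and tested with edgeR 4.0.16 (quasi-likelihood test, R 4.3.3) between pairs of groups, 8 libraries per fit, with Benjamini-Hochberg adjustment over all genes tested and a threshold of 0.05 and of 1 on the log2 scale. The scripts were tested on simulated data. DESeq2 1.42.0, limma 3.58.1 on log2(FPKM + 1) of genes with a mean FPKM above 0.5, other scalings and filters, a replicate block and fits without 1 library were alternatives. Ratios were compared by exact permutation tests. From each list, the genes with the largest called rise and fall in a comparison of 5/6 Nx-HPi-Lp mice were named. Apart from the endothelial genes, all genes of a count of 5 or fewer in those comparisons were named too. Genes behind most other counts were not. Some items are not reported here. Library totals of 13659525 to 57276915 counts set the counting error. The p-values set differences between groups against the spread between the mice within them. The labels do not describe housing or batches, so effects of these cannot be told apart from effects of group.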

Additional observations from a re-analysis of the deposited data

Results flagged for a closer look

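In 4 of the 40 groups of 4 mice tested (10 genes in 4 groups), 1 mouse lay far from the other 3. The gap to its nearest neighbour, as a share of the whole range of the group, was above Dixon's 95% critical value for 4 samples. Chance flags about 1 in 20 groups in separate tests. The 10 genes were measured in the same mice and some rise and fall together (r = 0.876 for Dcn with Lum). The 40 tests are therefore not separate events. Dpp4 in 5/6 Nx-HPi-Hp replicate 1 was 22.3 CPM beside 5.52 to 7.65 CPM in the other mice of the group, a gap of 0.873 of the range. In 5/6 Nx-LPi-Lp replicate 2, Dcn was 599 CPM beside 274 to 314 CPM (a gap of 0.878), Lum 89.7 CPM beside 35.8 to 42.0 CPM (a gap of 0.885) and Cd34 128 CPM beside 82.7 to 84.8 CPM (a gap of 0.952).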

How the results depend on the processing

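Over the alternatives and the fits without 1 library, 1073 log2 fold changes of the 10 genes kept their direction and side of the threshold, 61 lost a call, 20 gained one and 46 changed sign, and the cause was not tested. Against Sham, 3666 genes were called in 5/6 Nx-HPi-Lp mice, 2057 by limma on log2(FPKM + 1), 1886 by limma with no FPKM filter (3 of the 10 genes in place of 5) and 7089 with no fold-change threshold. Against 5/6 Nx-HPi-Hp, 1315 were called, 2011 with all 16 libraries in 1 fit, 2095 by DESeq2, 783 by limma, 468 by limma with no filter and 2113 with no fold-change threshold. Of the 10 genes, 5 were called there, 3 by limma with a pseudocount of 1 or 0.1 and 2 with no FPKM filter. Against 5/6 Nx-LPi-Lp, 1931 were called, 1068 by limma, 769 by limma with no filter (3 of the 10 in place of 7) and 3262 with no fold-change threshold. For 5/6 Nx-HPi-Hp against Sham, 1932 were called, 878 by limma, 438 with no filter and 4990 with no fold-change threshold, where 2 of the 10 passed, as with library totals alone. For 5/6 Nx-LPi-Lp against Sham, 1748 were called, 870 by limma, 774 with no filter (0 of the 10 by either) and 5115 with no fold-change threshold, where 3 of the 10 passed, as with library totals alone. For 5/6 Nx-HPi-Hp against 5/6 Nx-LPi-Lp, 0 were called, 12 with no count filter and 79 by DESeq2. The replicate numbers did not pair the mice: same-numbered mice correlated at -0.30 to 0.57 over 24 pairs, and in 5 of them the own number was the best match. With the replicate block, 371 genes against 5/6 Nx-HPi-Hp (1 of the 10, Lum), 1271 against 5/6 Nx-LPi-Lp and 10 for 5/6 Nx-HPi-Hp against 5/6 Nx-LPi-Lp were called, and Pi16 became -0.021 against Sham and -0.064 against 5/6 Nx-LPi-Lp, and Lum 0.00069 for 5/6 Nx-HPi-Hp against 5/6 Nx-LPi-Lp. Without 1 library, 3413 to 4087 genes were called against Sham, 638 to 1558 against 5/6 Nx-HPi-Hp, 1278 to 2085 against 5/6 Nx-LPi-Lp, 1091 to 3161 for 5/6 Nx-HPi-Hp against Sham, 1333 to 2233 for 5/6 Nx-LPi-Lp against Sham and 0 to 1 for 5/6 Nx-HPi-Hp against 5/6 Nx-LPi-Lp, and 4 to 5, 2 to 6, 6 to 7, 0 to 2, 0 to 4 and 0 to 0 of the 10. No called change of the 10 genes changed sign. Library totals alone moved the 10 genes by -0.14 to -0.13 for 5/6 Nx-HPi-Lp against Sham. Pi16 against Sham was 0.052, and -0.090 with library totals, -0.0027 by limma, -0.0041 with a pseudocount of 0.1, -0.0027 with no filter and -0.14 to 0.29 without 1 library. Pi16 against 5/6 Nx-LPi-Lp was -0.067, -0.070 and -0.067 by the 3 limma fits and -0.20 to 0.25 without 1 library. Cd34 in 5/6 Nx-HPi-Hp against Sham was -0.17 with library totals, -0.032 with no count filter and -0.10 to 0.11 without 1 library, and Dpt -0.31 to 0.051. In 5/6 Nx-LPi-Lp against Sham, Pi16 was -0.16 and Fap -0.22 with library totals, Fap -0.036 with no count filter, and Fap -0.089 to 0.13 and Pi16 -0.051 to 0.20 without 1 library. Lum in 5/6 Nx-HPi-Hp against 5/6 Nx-LPi-Lp was -0.0037, and 0.044 with library totals, 0.010 with 10 counts in every library, 0.011, 0.0087 and 0.011 by the 3 limma fits, 0.0051 without mitochondrial genes and -0.15 to 0.40 without 1 library. There Dpp4 was -0.35 to 0.65, Pdgfra -0.077 to 0.39 and Dcn -0.053 to 0.40 without 1 library, and Dpp4 in 5/6 Nx-HPi-Lp mice -0.89 to 0.052 against 5/6 Nx-HPi-Hp and -0.57 to 0.034 against 5/6 Nx-LPi-Lp. The log2 ratio of Lum to Dcn differed by -0.035 to 0.27 for 5/6 Nx-HPi-Hp against Sham and -0.24 to 0.071 against 5/6 Nx-LPi-Lp, and that of Fap to Dpp4 by -0.68 to 0.037 and -0.13 to 0.62. The number of mice, 4 a group, sets the smallest exact permutation p at 0.0286, and Dpp4 and Fap had the lowest counts of the 10 genes, down to 39 and 112 in a library.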
